A study of Homo sapiens with 21 samples.

Results

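Acetylcholine is made from choline and acetyl-CoA by choline acetyltransferase (CHAT), loaded into synaptic vesicles by the vesicular acetylcholine transporter (SLC18A3), and split after release by acetylcholinesterase (ACHE). The high-affinity choline transporter (SLC5A7) takes the freed choline back into the nerve ending. Nicotinic receptors are ion channels of several subunits (CHRNA and CHRNB genes), and muscarinic receptors such as CHRM3 signal through G proteins. The 10 genes named by this rule, CHAT, SLC18A3, SLC5A7, ACHE, CHRNA3, CHRNA5, CHRNA7, CHRNB2, CHRNB4 and CHRM3, were chosen by function, out of 62656 genes counted, and are described here in neuron-like cells exposed to fluorinated compounds. In sympathetic and parasympathetic ganglia, receptors built of the CHRNA3 and CHRNB4 subunits, some with CHRNA5, carry fast transmission, while CHRNA7 forms receptors of 1 subunit kind with high calcium permeability.

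The cells were SH-SY5Y, an established neuroblastoma cell line of wild-type genotype per the labels, taken through an 11-day differentiation. They were kept as controls or exposed for 24 h to 1 of 6 compounds at 30 µM, with methanol at 1% in the treatment solutions. Whether the controls held methanol is not given in the sources used here. The carboxylic acids were PFOA and, with a longer perfluorinated chain, PFDA. The sulfonic acids were PFOS and, again with a longer chain, PFDS. The fluorotelomers were 8:2 FTS, which ends in a sulfonic acid, and 8:2 FTOH, which ends in an alcohol. Each of the 7 groups had 3 libraries of ribosome-depleted total RNA, and since nothing states that these came from separate cultures, the p-values may measure technical spread only.

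Total counts ran from 7680024 to 30429746 per library (median 14633793), and the 3 control libraries, at 22179910 to 24905803, were all above that median. The mitochondrial share of the counts was highest in replicate 3 of control (6.33%) and of 8:2 FTOH (6.11%), then in PFDA replicate 2 (5.4%) and PFDS replicate 1 (5.24%), and was 3.37% to 4.37% elsewhere. Levels below are CPM, counts scaled to the TMM-adjusted size of the library, as mean ± SD with n = 3. The neuron markers summed to 3278 to 3546 CPM in control libraries and all 6 were expressed. Of the sympathoadrenal markers, DBH, the enzyme that makes noradrenaline, was at 1146 ± 78.9 CPM in control, while TH, the enzyme of the first step of that pathway and a defining marker, was near 0 at 0.592 ± 0.15. The skeletal muscle markers MYOD1 and MYOG, relevant because muscle also carries nicotinic receptors, were at 0.0296 ± 0.051 and 0.348 ± 0.19 CPM. The cells were a bulk population, so fewer cells expressing a gene and less RNA per cell cannot be told apart.

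Positions are those of the count table, on hg38. CHAT (ENSG00000070748, chromosome 10, 49609095 to 49667942, plus strand) contains SLC18A3 (ENSG00000187714, 49610310 to 49612720, plus strand) between its exons, with no overlap of exons. CHRNA5 (ENSG00000169684, chromosome 15, 78565520 to 78595269, plus strand), CHRNA3 (ENSG00000080644, 78593052 to 78621295, minus strand) and CHRNB4 (ENSG00000117971, 78624111 to 78727754, minus strand) follow each other, and exons of CHRNA5 and CHRNA3 overlap over 198 bases. CHRNA7 (ENSG00000175344, chromosome 15, 31923438 to 32173018, plus strand) has a partial duplicate, CHRFAM7A, with near-identical exons. ACHE (ENSG00000087085) lies on chromosome 7 at 100889994 to 100896974 on the minus strand, and SLC5A7 (ENSG00000115665) on chromosome 2 at 107986523 to 108013994 on the plus strand. CHRNB2 (ENSG00000160716, 154567778 to 154580013) and CHRM3 (ENSG00000133019, 239386565 to 239915452) are on the plus strand of chromosome 1.

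The promoters of 3 genes are shown as a description, and no link between their sequence and the levels was tested. They are those of SLC18A3 and CHRNB2, whose levels went together across libraries, and of CHRNA7, whose control libraries were low. Each is the 250 bases before the RefSeq start (GRCh38.p14), 5′ to 3′ on the gene's strand, with GC boxes (GGGCGG, or CCGCCC on the other strand) in capitals. The SLC18A3 window is chr10:49610060-49610309, that of CHRNB2 is chr1:154567528-154567777 and that of CHRNA7 is chr15:32030233-32030482, all on the plus strand. The CHRNA7 start used by RefSeq lies inside the span given for the gene in the count table.
SLC18A3: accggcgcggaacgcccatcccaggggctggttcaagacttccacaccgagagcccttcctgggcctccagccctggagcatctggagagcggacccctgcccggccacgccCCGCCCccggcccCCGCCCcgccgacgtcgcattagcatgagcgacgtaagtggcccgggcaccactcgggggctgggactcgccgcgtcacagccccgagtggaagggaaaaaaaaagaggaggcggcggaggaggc
CHRNB2: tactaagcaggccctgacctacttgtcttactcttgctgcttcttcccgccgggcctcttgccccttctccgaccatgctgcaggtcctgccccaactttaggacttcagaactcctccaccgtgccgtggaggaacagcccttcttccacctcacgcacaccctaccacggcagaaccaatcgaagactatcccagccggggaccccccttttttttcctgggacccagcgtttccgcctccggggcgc
CHRNA7: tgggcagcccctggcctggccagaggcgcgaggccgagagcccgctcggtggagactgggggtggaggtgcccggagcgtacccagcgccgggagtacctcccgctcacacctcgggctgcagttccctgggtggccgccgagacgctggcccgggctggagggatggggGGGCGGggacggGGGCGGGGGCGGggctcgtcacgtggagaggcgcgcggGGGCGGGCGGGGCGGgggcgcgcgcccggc
The script counted 2 GC boxes in the SLC18A3 window, 0 in that of CHRNB2 and 6, some overlapping, in that of CHRNA7, and at least 1 stands in 42.64% of 35116 RefSeq windows of this length. GC made up 70.8% of the SLC18A3 window, 60.4% of the CHRNB2 window and 80.4% of the CHRNA7 window. A match of letters is a description and not a binding site.

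In control cells the 10 genes differed widely in level. Per kilobase of exon, SLC18A3 (28.8 ± 0.58 CPM per kb), CHRNB2 (27.5 ± 1.28), CHRM3 (27 ± 0.35) and CHRNA3 (26.7 ± 1.37) were the highest. CHRNB2, CHRM3 and CHRNA3 did not differ beyond their spread, nor did SLC18A3 and CHRNB2, while the SLC18A3 libraries all lay above those of CHRM3. ACHE followed at 12.4 ± 1.39, then CHRNA5 at 7.64 ± 0.37 and CHRNB4 at 6.56 ± 0.92, whose libraries overlap. Then came CHRNA7 at 2.96 ± 0.11 and CHAT at 0.728 ± 0.043. The CHRNA7 value divides by 21248 exon bases and leaves out reads that also matched CHRFAM7A, so it may be too low. Among tested genes the control level per kb of SLC18A3 was at percentile 95.4 and that of CHAT at percentile 20. The vesicle transporter thus stood 39.7 ± 2.51 times above the enzyme per kb in control libraries, though both belong to 1 gene locus.

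**Figure D1:**
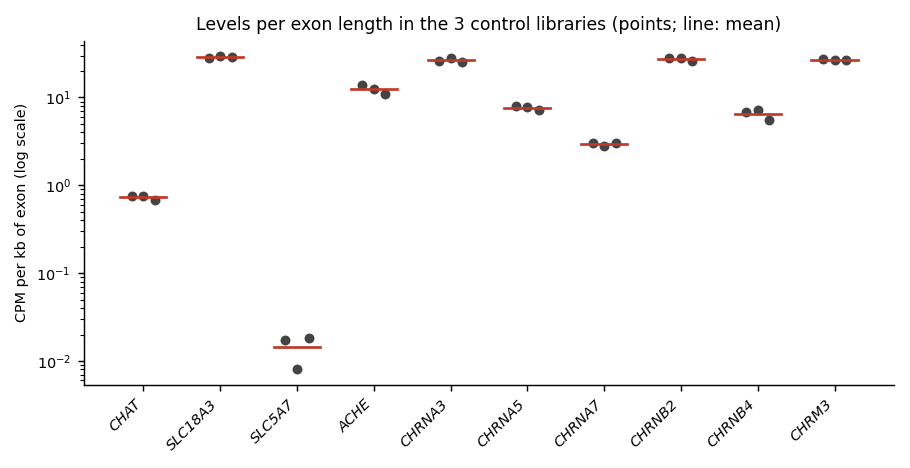
Level of each cholinergic gene per kilobase of exon in the 3 control libraries, on a log axis (points are libraries, the red line their mean). SLC18A3, CHRNB2, CHRM3 and CHRNA3 lie together at 26.7 to 28.8 CPM per kb, CHAT is at 0.728, and the points of SLC5A7 rest on 1 or 2 counts.

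Every gene except SLC5A7 was counted well enough to be tested, so 9 of the 10 entered the tests. No member passed an adjusted p of 0.05 in any of the 16 comparisons (edgeR's quasi-likelihood test with Benjamini-Hochberg adjustment over 24879 genes), and DESeq2 also called 0. The lowest adjusted p of any comparison was 0.214, for CHRNA7 in the mean of the 6 compounds, and the lowest for a single compound was 0.263, for SLC18A3 with PFOA. Calls were rare in the whole table: an adjusted p under 0.05 was reached by 0.0322% of tested genes for 8:2 FTOH, 0.0844% for 8:2 FTS, 0.00804% for PFDA, 0.0241% for PFDS, 0.0322% for PFOA and 0.0241% for PFOS. It was reached by 0.35% for the mean of the 6 compounds against control and by 0.0322% in the test over all 7 groups. In each of the 6 comparisons with control the 95% intervals of all 9 genes lay within a 2-fold change either way. Those of 8 lay within 1.5-fold, CHAT being the exception. Like the p-values, these intervals rest on the spread between libraries, which may be technical only. Without CHAT the bounds ran from -0.51 to 0.41 on the log2 scale.

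**Figure D2:**
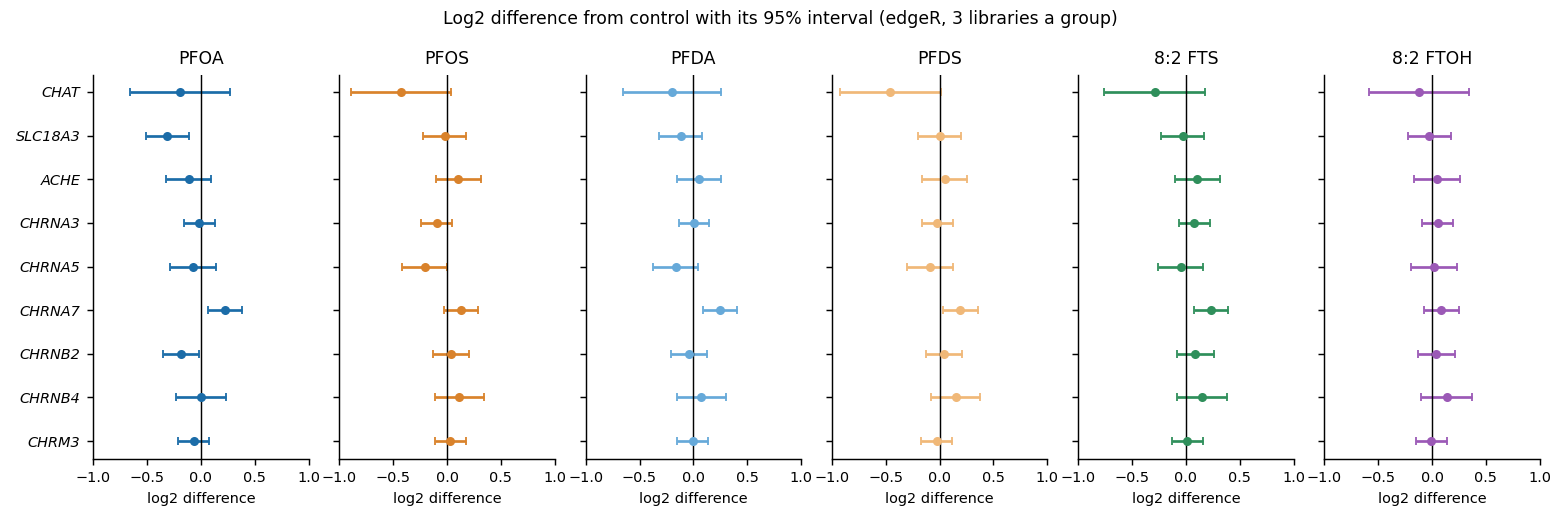
Log2 difference of each tested cholinergic gene from control, by compound, with its 95% interval from edgeR. Most intervals cover 0, those of SLC18A3 and CHRNB2 for PFOA lie below it, those of CHRNA7 for PFOA, PFDA, PFDS and 8:2 FTS lie above it, and none passed after adjustment.

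An unadjusted p under 0.05 was reached by 3 of the 9 genes for PFOA, against 10.1% of all tested genes, by 1 for 8:2 FTS (7.77%), 1 for PFDS (5.58%), 1 for PFDA (8.43%), 0 for 8:2 FTOH (7.83%) and 0 for PFOS (6.83%). For the mean of the 6 compounds it was 1 of 9, against 9.98% of tested genes, and in the test over all 7 groups 2 of 9 (CHRNA7 and SLC18A3), against 5.91%. Apart from PFOA and the test over 7 groups, such shares of 9 genes are near the background. Of the 3 genes for PFOA, SLC18A3 and CHRNB2 went together across libraries (Pearson 0.893). The median log2 difference of the 9 genes was -0.07 for PFOA, 0.08 for 8:2 FTS, 0.04 for 8:2 FTOH, 0.03 for PFOS, 0.001 for PFDS and -0.0076 for PFDA, while that of all tested genes lay between 0.0022 and 0.0092.

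Among the presynaptic genes, CHAT, which makes the transmitter, had the fewest counts of those tested, with 32 to 129 counts per library. Its control libraries held 4.93, 4.99 and 4.47 CPM. The PFDS libraries held 3.63, 2.59 and 4.12 CPM and the PFOS libraries 4.17, 2.48 and 3.85, all below the lowest control library. The 8:2 FTS libraries, at 3.46, 4.46 and 3.93 CPM, also lay below it, the highest of them by a small margin. PFOA, PFDA and 8:2 FTOH overlapped with control, at means of 4.17 ± 0.46, 4.22 ± 0.94 and 4.36 ± 0.47 CPM. In all, 14 of the 18 compound libraries were below the lowest control and 0 above the highest. All 18 are set against the same few control libraries, and the share of all tested genes with such a count was not computed. The log2 differences of -0.46 (SE 0.23) for PFDS and -0.43 (SE 0.23) for PFOS had adjusted p of 0.897 and 0.77. The 95% interval for PFDS ran from -0.93 to 0.01. Without PFDS replicate 2 the difference for PFDS was -0.29, and without PFOS replicate 2 that for PFOS was -0.26.

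SLC18A3, which encodes the vesicle transporter, was at 68.1, 70.9 and 69.6 CPM in control and at 51.1, 58.5 and 58.4 CPM with PFOA. The 3 PFOA libraries were thus below all controls. The other groups overlapped with control, and their means, 63.9 ± 7.37 for PFDA, 67.8 ± 9.29 for 8:2 FTOH, 68.1 ± 5.29 for 8:2 FTS, 68.5 ± 2.02 for PFOS and 69.2 ± 12.3 for PFDS, were nearer to it. The 3 libraries of PFDS were wide apart at 58.9, 65.9 and 82.8 CPM, the last being the highest value of all. For PFOA the log2 difference was -0.31 (SE 0.10, 95% interval -0.51 to -0.11, adjusted p = 0.263), and -0.28 with an adjusted p of 0.312 after the trend with GC content was removed.

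SLC5A7, the choline transporter that limits transmitter synthesis in cholinergic nerve endings, had 0 to 12 counts per library and 61 in all 21. In control it had 2, 1 and 2 counts, below the limit of 3 counts that a count of 0 allows, which corresponds to 0.126 to 0.143 CPM there. The highest level was 0.514 CPM, in PFOA replicate 1, whose other 2 libraries had 0 counts. Both the control and most compound libraries were at or under the limit, so no fold is given. Other carriers of choline were present: the choline transporter-like gene SLC44A2 was at 217 ± 20.5 CPM in control and SLC44A5 at 59.3 ± 8.7, and CHKA, a choline kinase, was at 30.6 ± 0.66. Of the 11 genes for choline transport and phosphorylation, all 11 were tested and 0 passed in any comparison with control, with median log2 differences from -0.07 for 8:2 FTS to 0.06 for 8:2 FTOH.

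ACHE, which encodes the enzyme that ends the signal, was at 56, 50.5 and 44.7 CPM in control, a spread as wide as that between most groups. Its means were 46.5 ± 3.58 with PFOA, 54.1 ± 0.94 with PFOS, 52.1 ± 2.78 with PFDA, 51.8 ± 10.9 with PFDS, 54.1 ± 2.42 with 8:2 FTS and 51.9 ± 4.92 with 8:2 FTOH. All 6 groups overlapped with control. The lowest library was PFDS replicate 1 at 39.3 CPM, while the other PFDS libraries held 58.5 and 57.7. BCHE, the related butyrylcholinesterase, was at 1.09 ± 0.16 CPM in control, and of the anchors of these enzymes PRIMA1, which tethers acetylcholinesterase to neuronal membranes, was at 21.4 ± 2.89 and COLQ, the collagen tail used at the neuromuscular junction, at 9.1 ± 1.31. None of these 3 passed in any comparison with control.

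**Figure D3:**
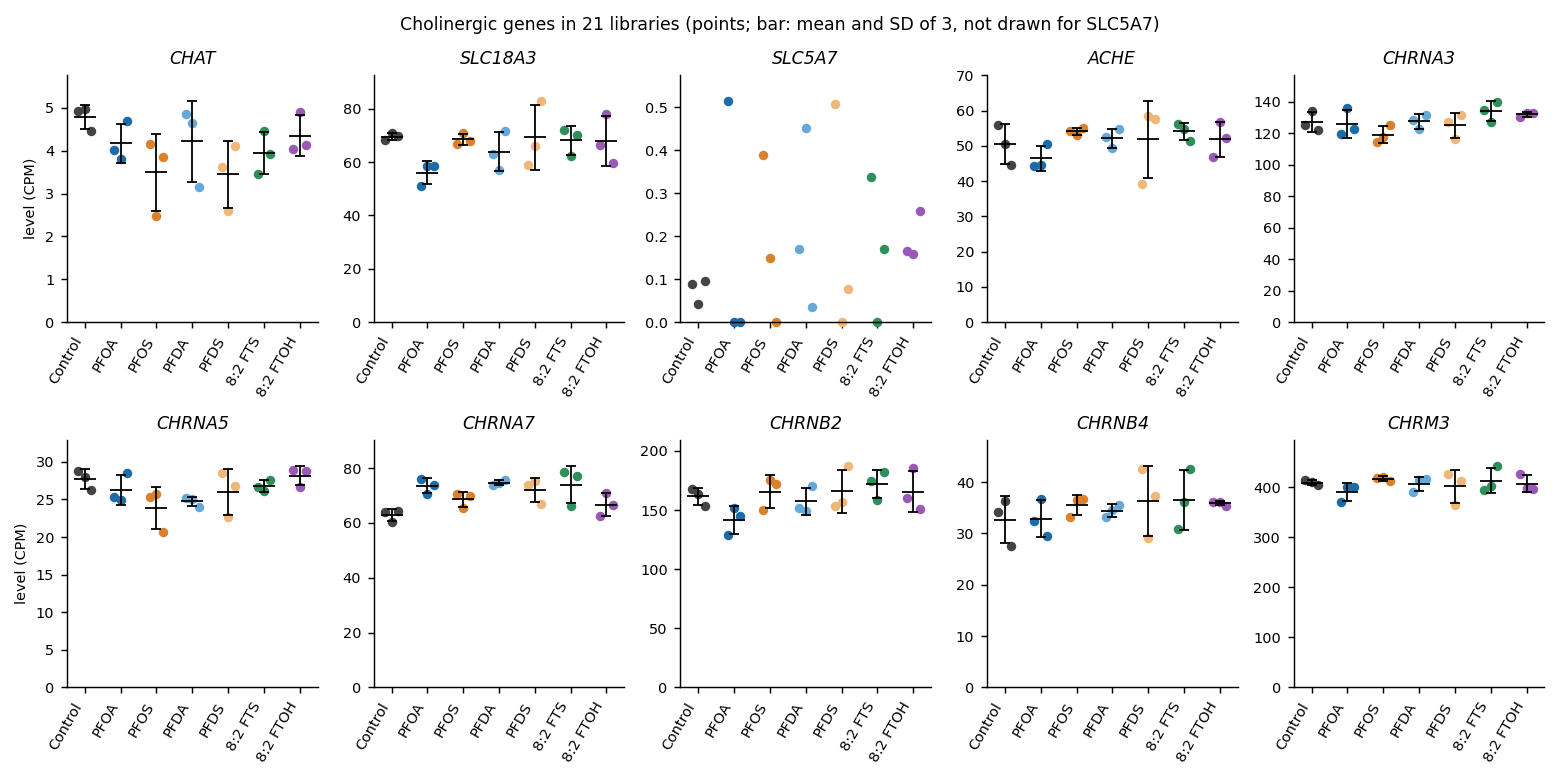
Level of the 10 cholinergic genes in CPM, from 0, in each of the 21 libraries (points), with mean and SD of 3 (bars, not drawn for SLC5A7). The PFOA points of SLC18A3 lie below the control points, and the control points of CHRNA7 lie below nearly all others.

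Of the nicotinic subunits CHRNA7 gave the most regular pattern. Its control libraries held 64, 60.3 and 64.4 CPM. The PFDA libraries held 73.7, 74.5 and 75.6 CPM, the PFOA libraries 76, 70.6 and 74, and the 8:2 FTS libraries 78.4, 66.2 and 77.1. All 9 of these were above every control. The PFDS libraries held 74, 75.2 and 67 CPM and the PFOS libraries 70.5, 65.3 and 69.9, also above every control, whereas 8:2 FTOH, at 62.4, 70.9 and 66.7, overlapped with control. Thus 17 of the 18 compound libraries were above the highest control, as were at least that many for 0.494% of tested genes, a count chosen after these values were seen. The same 3 control libraries enter each comparison.

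The log2 difference of CHRNA7 from control was 0.25 for PFDA (SE 0.08, 95% interval 0.09 to 0.41, adjusted p = 0.383), 0.23 for 8:2 FTS (adjusted p = 0.379), 0.23 for PFOA (adjusted p = 0.314), 0.19 for PFDS (adjusted p = 0.767), 0.13 for PFOS (adjusted p = 0.824) and 0.09 for 8:2 FTOH (adjusted p = 0.861). Without 8:2 FTOH replicate 2 that of 8:2 FTOH was 0.04. The mean of the 6 compounds against control gave 0.19 (SE 0.06, 95% interval 0.06 to 0.31) with an adjusted p of 0.214, and 0.0761 by DESeq2, so the difference did not pass under either tool. Over all alternatives the adjusted p lay between 0.0761 and 0.868. The log2 difference was 0.19 with the GC trend removed, and 0.2 when replicate 3 of control and of 8:2 FTOH were left out. CHRFAM7A, the partial duplicate, was at 6.37 ± 0.37 CPM in control and between 6.16 ± 0.97 (8:2 FTOH) and 7.71 ± 1.15 (PFDS) elsewhere. Reads that matched both genes were not counted, so the counts of either cover only the parts in which they differ.

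CHRNA3, CHRNA5 and CHRNB4 are neighbours on chromosome 15 and supply subunits of the ganglionic receptor. CHRNA3 was at 127 ± 6.53 CPM in control, lowest with PFOS at 119 ± 5.35 and highest with 8:2 FTS at 134 ± 6.4, and no group stood clear of control. CHRNA5 was at 28.8, 28 and 26.2 CPM in control. All PFOS libraries (25.4, 25.7 and 20.7) and all PFDA libraries (25.2, 25.1 and 24) were below these, with log2 differences of -0.21 (SE 0.11, adjusted p = 0.733) and -0.16 (SE 0.10, adjusted p = 0.694). Without PFOS replicate 3 the first was -0.12, and with scaling by library size only the second was -0.0992. An antisense gene, ENSG00000261762, overlaps 22.96% of the exon length of CHRNA5, and was at 8.44 ± 1.11 CPM in control, 6.82 ± 1.29 with PFOS and 7.14 ± 1.41 with PFDA. Counting ignored strand, so reads of the pair in the shared stretch cannot be told apart, and its part in these values was not tested.

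CHRNB4 was at 34.2, 36.3 and 27.5 CPM in control, with replicate 3 the lowest of the 21 libraries. All 6 compound means were above the control mean of 32.7 ± 4.61, from 32.9 ± 3.62 for PFOA to 36.5 ± 5.83 for 8:2 FTS, but every group overlapped with control. The mean of the 6 compounds differed from control by 0.10 on the log2 scale (SE 0.09, adjusted p = 0.755), and by -0.0042 once control replicate 3 was left out. Per kb, CHRNA3 had the highest mean of the 3 neighbours in every group, at 3.52 ± 0.13 (PFOS) to 4.11 ± 0.45 (control) times CHRNB4 and at 3.5 ± 0.18 (control) to 3.93 ± 0.22 (PFDA) times CHRNA5.

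CHRNB2 encodes the β subunit of the main nicotinic receptors of the brain. It was at 168, 164 and 153 CPM in control and at 129, 152 and 145 with PFOA, all below the controls, the nearest by a narrow margin. The log2 difference was -0.19 (SE 0.08, 95% interval -0.36 to -0.02, adjusted p = 0.436), -0.15 with the GC trend removed and -0.12 with scaling by library size only. In the other groups the means ran from 157 ± 11.4 (PFDA) to 172 ± 11.9 (8:2 FTS) and overlapped with control. Its usual partner in the brain, CHRNA4, was at 0.249 ± 0.15 CPM in control, with at most 24 counts in any library, while CHRNA3 stood at 0.973 ± 0.05 times CHRNB2 per kb.

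Of the 11 other nicotinic subunit genes, 8 were tested and 0 passed in any comparison with control. CHRNB1, the β subunit of the muscle receptor, was at 4.11 CPM per kb in control, followed by CHRNA10 at 0.761 and CHRNG, the fetal muscle subunit, at 0.228, the others being below. The muscle subunit genes CHRNA1, CHRND and CHRNE were at 0.0575 ± 0.05, 0.463 ± 0.15 and 0.731 ± 0.38 CPM. Genes that help receptors fold or modulate them were expressed: LY6E and LYNX1, of the family of Ly6 proteins, at 40 ± 3.34 and 43.5 ± 1.22 CPM in control, TMEM35A (NACHO), a chaperone on which CHRNA7 receptors depend, at 20.4 ± 3.05, and the chaperone RIC3 at 61.8 ± 3.52. Of 9 such genes 8 were tested and 0 passed for any compound, with medians from -0.07 for PFDS to 0.04 for PFOS.

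CHRM3 encodes a muscarinic receptor that couples to phospholipase C. It was at 415, 410 and 404 CPM in control, and at 371, 401 and 400 with PFOA, all below the controls. The log2 difference for PFOA was -0.07 (SE 0.07, adjusted p = 0.813), and it was -0.0371 without PFOA replicate 1 and 0.00046 with scaling by library size only. Means in the other groups ran from 402 ± 32.3 (PFDS) to 417 ± 4.65 (PFOS) and overlapped with control. The antisense transcript CHRM3-AS2, which shares 269 exon bases with it, was at 144 ± 11.5 CPM in control and at 162 ± 11.5 with PFOA, and its part in these values was not tested. Among the 4 other muscarinic genes CHRM2 was at 25.2 ± 4.15 CPM in control, CHRM1 at 5.59 ± 0.79, CHRM4 at 3.79 ± 0.32 and CHRM5 at 0.97 ± 0.67, and 0 of the 4 passed for any compound.

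Groups that did not overlap with control were counted over the 9 genes and over all tested genes. For PFOA, CHRNA7 was higher in all 3 libraries (7.45% of tested genes were) and CHRM3, CHRNB2 and SLC18A3 were lower (8.46%). For PFOS, CHRNA7 was higher (6.62%) and CHAT and CHRNA5 were lower (7.41%). For PFDA, CHRNA7 was higher (7.92%) and CHRNA5 lower (7.85%). For PFDS, CHRNA7 was higher (3.72%) and CHAT lower (4.53%), and for 8:2 FTS, CHRNA7 was higher (6.64%) and CHAT lower (7.17%). For 8:2 FTOH no member was clear of control, against 5.95% of tested genes higher and 6.98% lower. A single gene of the 9 is a share near these percentages, while the 2 lower genes of PFOS and the 3 of PFOA are above theirs. Of the 3 for PFOA, SLC18A3 and CHRNB2 went together across libraries (Pearson 0.893) and so are not separate cases. The log2 difference of CHRM3 was 0.00046 with scaling by library size only.

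The compounds were also compared with each other at the same dose and time, in 8 pairs, and 0 of the 72 tests of a cholinergic gene passed (lowest adjusted p 0.647). The pairs gave few calls over all genes. For chain length, an adjusted p under 0.05 was reached by 0% of tested genes for PFDA against PFOA and 0.00402% for PFDS against PFOS, and an unadjusted one by 2.93% and 4.37%, among them 0 members in either pair. The 95% intervals of all 9 genes lay within 1.5-fold for both pairs, from -0.48 to 0.46 and from -0.51 to 0.46 on the log2 scale. For the acid group, PFOS against PFOA gave 0% adjusted and 4.9% unadjusted, with 3 members among the latter, and PFDS against PFDA gave 0% and 5.59%, with 0 members. Their intervals ran from -0.72 to 0.49 and from -0.74 to 0.32, the lower ends being those of CHAT.

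The 3 genes with an unadjusted p under 0.05 for PFOS against PFOA had higher means with PFOS, though the libraries of CHRNB2 overlapped. SLC18A3 was at 68.5 ± 2.02 CPM with PFOS and 56 ± 4.23 with PFOA (log2 difference 0.29, 95% interval 0.08 to 0.49), CHRNB2 at 166 ± 13.8 and 142 ± 11.9 (0.22, 0.05 to 0.39) and ACHE at 54.1 ± 0.94 and 46.5 ± 3.58 (0.22, 0.0048 to 0.43). All 3 had an adjusted p of 0.958. With the GC trend removed the differences were 0.16, 0.16 and 0.10, so those of SLC18A3 and ACHE shrank by over 1.5 times.

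For 8:2 FTS, the pairs with 8:2 FTOH, PFOS and PFDS each gave 0% of tested genes at an adjusted p and 3.26%, 2.86% and 4.1% at an unadjusted one. The member among the latter was CHRNA3, at 134 ± 6.4 CPM with 8:2 FTS against 119 ± 5.35 with PFOS (log2 difference 0.17, 95% interval 0.03 to 0.32, adjusted p = 1). For 8:2 FTOH against PFOA 0.00402% were called and 6.52% had an unadjusted p under 0.05, with 2 members: SLC18A3, at 67.8 ± 9.29 against 56 ± 4.23 CPM (0.29, 0.08 to 0.49, adjusted p = 0.647), and CHRNB2, at 166 ± 17.6 against 142 ± 11.9 (0.23, 0.06 to 0.40, adjusted p = 0.676). Without 8:2 FTOH replicate 2 these 2 differences were 0.17 and 0.14. The pairs of PFOS and of 8:2 FTOH with PFOA share the PFOA libraries. Over the 3 pairs with 8:2 FTS and the pair of 8:2 FTOH with PFOA, intervals reached from -0.66 to 0.66, and from -0.30 to 0.49 without CHAT.

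SLC18A3, CHRNB2 and ACHE varied with the base composition of each library. As a measure of it, the 10% of genes richest in GC (60.95% and above) were set against the 10% poorest (39.19% and below) as a log2 difference per library. It was 0.14, 0.10 and -0.22 in control, -0.16, -0.21 and -0.08 with PFOA, and -0.25 in PFDS replicate 1. SLC18A3 has 67.19% GC, more than 99% of tested genes with a value, ACHE 65.52% and CHRNB2 57.69%. CHAT, with 58.25%, is richer in GC than CHRNB2. Over the 21 libraries, which share this composition, the log2 level went with the measure for ACHE (Pearson 0.831, Spearman 0.789), SLC18A3 (0.677 and 0.643) and CHRNB2 (0.642 and 0.627), while for the other 6 genes tested Pearson's r lay between -0.215 and 0.059. That of CHAT was -0.09, so a high GC content alone did not mark the genes that went with the measure. These are given as descriptions. Control replicate 3, with a low value of the measure, had 69.6 CPM of SLC18A3. It had 44.7 CPM of ACHE and 153 of CHRNB2, each the lowest of the 3 control libraries. The part of base composition in the PFOA values was not tested beyond the fit with the GC trend removed.

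**Figure D4:**
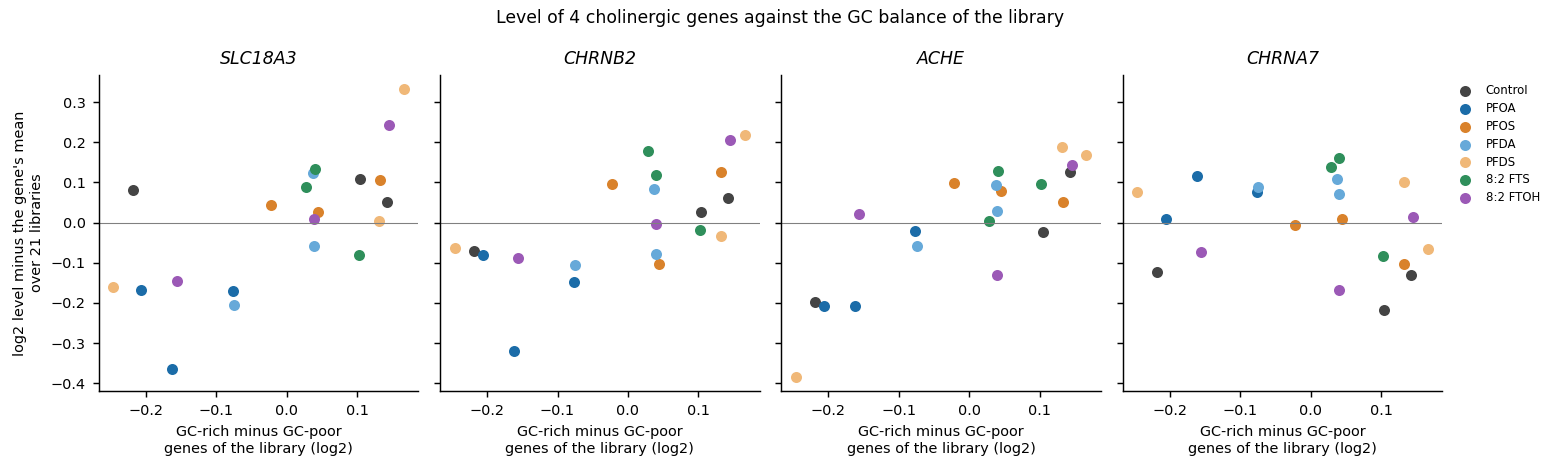
Log2 level of 4 cholinergic genes, relative to the gene's mean, against the difference between GC-rich and GC-poor genes in the same library (log2), with 21 libraries coloured by group. SLC18A3, CHRNB2 and ACHE climb from left to right (Pearson 0.677, 0.642 and 0.831), and CHRNA7 does not (-0.215).

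SLC18A3 and CHRNB2 were the most alike of the 36 pairs of members (Pearson 0.893, Spearman 0.873 over 21 libraries), followed by CHRNB4 with CHRM3 (0.655 and 0.595). Among 13477 protein-coding genes, those most like SLC18A3 across the libraries were L1CAM (0.944), a neuronal cell adhesion gene, and PRRC2A (0.94), with 60.59% and 59.54% GC. SEZ6L2 (0.931) and CLPTM1 (0.927), with 62.45% and 59.6% GC, were most like CHRNB2, and SLC6A8 (0.883) and SBF1 (0.846) most like ACHE. The closest to CHRNA7 were SLC11A2 (0.733), the iron transporter gene, and ARL6IP6 (0.727). Without the 3 control libraries these 2 correlations were 0.643 and 0.549. The closest to CHRNB4 were DERL1 and SETBP1 (0.82 each), to CHRM3 AAAS (0.824) and M6PR (0.8), to CHRNA3 NOMO2 (0.743) and SENP2 (0.741), to CHRNA5 NOP14 (0.746) and PDE4D (0.725), and to CHAT MNAT1 (0.755) and ARMC12 (0.691). Spearman's value was lower for PDE4D (0.618) and ARMC12 (0.538). All these partners are the highest of many correlations over only 21 libraries, and how high unrelated genes would reach was not tested.

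**Figure D5:**
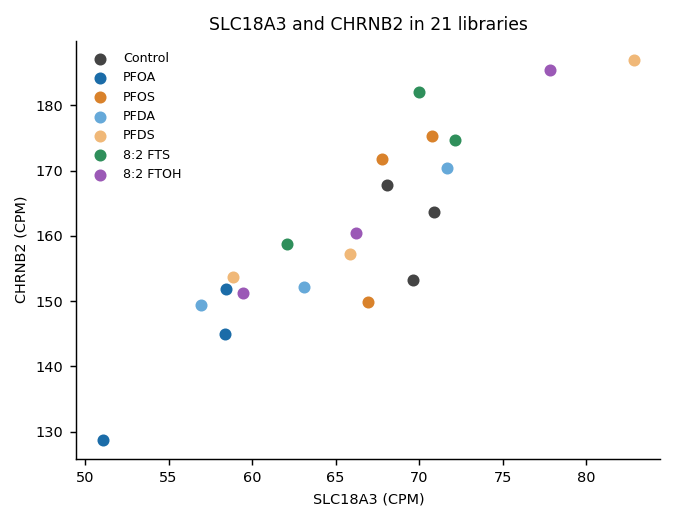
CPM of SLC18A3 against CPM of CHRNB2 in each of the 21 libraries, coloured by group. The points lie along 1 line (Pearson 0.893), with PFOA replicate 1 lowest (51.1 and 129 CPM) and PFDS replicate 3 highest (82.8 and 187 CPM).

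Transcription factors of cholinergic and autonomic neurons were abundant in part. In control, ISL1, which helps to specify cholinergic motor neurons, was at 307 ± 5.94 CPM. PHOX2A, a factor of autonomic neurons, was at 315 ± 27.6 and HAND2 at 705 ± 38.9. Others of the list were near 0: LHX3 was at 0.106 ± 0.11 and MNX1 at 0.136 ± 0.097 CPM in control. LHX8, a factor of cholinergic neurons of the forebrain, had 0 counts in all libraries. REST, the repressor of neuronal genes, was at 75 ± 7.96 CPM. Of 13 factors 10 were tested and 0 passed. For PFOA 9 of the 10 had negative differences, against 48.23% of all tested genes, with a median of -0.14 against 0.0092 for all tested genes. For PFDA it was 9 of 10, against 48.49%, with a median of -0.07. The number was 7 for PFOS and for 8:2 FTS, 6 for 8:2 FTOH and 5 for PFDS. Of 9 noradrenergic genes MAOB, a monoamine oxidase, fell for PFOA (log2 difference -0.65, SE 0.13, adjusted p = 0.0324) and for the mean of the 6 compounds (-0.52, SE 0.09, adjusted p = 0.00363), and the other 8 did not pass for any compound.

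Markers of other cell states were set beside these values. The summed cycling markers MKI67, TOP2A and CDK1 were at 1472 to 1565 CPM in control and 1271 to 1333 with PFOS. Those of 4 more compounds lay below control as well, while PFDS, at 1346 to 1618, overlapped. MKI67 was the largest part of the sum, at 856 ± 32.2 CPM in control. For PFOA 2 of the 3 genes had positive differences, and none of the 3 passed in any comparison with control. The summed neuron markers, at 3278 to 3546 CPM in control, were wholly below it with 8:2 FTS (2890 to 3133), 8:2 FTOH (2992 to 3196), PFDA (3032 to 3142) and PFOS (3066 to 3211), and overlapped with it for PFOA and PFDS. STMN2, at 1189 ± 91 CPM in control, was the largest part of this sum. Of the 6 genes, 2 had positive differences for 8:2 FTS and for 8:2 FTOH, and 1 for PFDA and for PFOS. How often sums of other genes would lie clear of control was not tested. GAP43, a growth cone gene, was the 1 neuron marker of 6 that passed, and it fell in the mean of the 6 compounds against control (log2 difference -0.34, adjusted p = 0.00978). The sympathoadrenal sum was at 2348 to 2592 CPM with PFOA against 2650 to 2942 in control. There 5 of its 6 genes had negative differences, against 48.23% of all tested genes. The mesenchymal sum, at 58.5 to 61.8 CPM in control, was below it with PFOA (47.1 to 53.5), PFDA (54.1 to 56.9) and 8:2 FTS (54.3 to 56.3). It overlapped with control for the other 3 compounds, and 2 of its 7 genes, PRRX1 and YAP1, were not tested for low counts. FN1, at 43.9 ± 3.27 CPM in control, was the largest part of the mesenchymal sum. Glial markers summed to 8.78 to 13.5 CPM over all libraries. The part of these shifts in the cholinergic values was not tested.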

How the data were processed

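RNA of 21 libraries was analysed, 3 in each of 7 groups taken from the labels. Per the submitters' processing notes, reads were checked with FastQC and MultiQC, aligned with HISAT2 to hg38, handled with SAMtools and counted with featureCounts, and DESeq2 is listed too. The counter was version 2.0.1 per the file headers and used no strand setting, and multi-mapped reads or reads over several genes were left out, so genes that overlap or have a near-identical copy may lose or share reads. The deposited table holds raw counts per gene and exon lengths, with no other normalization; the annotation release is not given in the sources used here. The authors' normalized table was not used here.

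Of 62656 genes, 24879 passed filterByExpr of edgeR 4.0.16. Counts were scaled by TMM and fitted in 1 quasi-likelihood model over all groups with robust dispersion (R 4.3.3, limma 3.58.1, common biological coefficient of variation 0.1124), with Benjamini-Hochberg adjustment within each of 16 comparisons at 0.05. DESeq2 1.42.0 was an alternative. The fit was tested on simulated data. GC values were known for 94.42% of tested genes, and the GC trend was removed by lowess with a span of 0.3. Gene symbols matched 99.97% of identifiers. All 10 genes are described in every group. The genes named as most alike are the 2 of highest Pearson correlation over 21 libraries. From each companion list any gene that passed and up to 3 of the highest level per kb are named, and genes overlapping a member. CHRNA1, CHRNA4, CHRND, CHRNE, CHRM5, RIC3, LHX3, MNX1, LHX8, REST and CHRFAM7A were added for their roles after their values were seen. The members and lists were chosen with earlier results of these data known. Promoters come from RefSeq and matched 9 of the 10 genes. Alternatives were DESeq2 size factors, library size, no filter or a stricter filter, only the groups compared, a replicate block and each library left out, while leaving out the 2 libraries of highest mitochondrial share and removing the GC trend were chosen after seeing the data. Python 3.11.15, pandas 2.3.3 and matplotlib 3.10.9 made tables and figures.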

Additional observations from a re-analysis of the deposited data

How the results depend on the processing

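The count of cholinergic genes past an adjusted p of 0.05 was 0 in all 284 fits of a comparison under a setting, and the lowest adjusted p of any was 0.0721, for SLC18A3 with PFOA without a filter on low counts. The 1422 values of single genes under alternatives include adjusted p-values of the test over all 7 groups, which have no direction. Of the 1422, 6 changed sign by more than 1 SE, none of them past the threshold, and 1416 did not. Leaving out 1 library each, the log2 differences ran from -0.0042 to 0.19 for CHRNB4 in the mean of the 6 compounds (lowest without control replicate 3), from -0.0723 to 0.0458 for CHRM3, -0.16 to 0.10 for SLC18A3 and -0.0552 to 0.093 for CHRNB2 with PFDS, and from -0.046 to 0.0972 for CHRNB2 with 8:2 FTOH. CHRNB4 in the mean of the 6 compounds was also at -0.0031 without the 2 libraries of highest mitochondrial share. The cause was not tested. Scaling by library size only raised the number of genes with positive differences from 2 to 4 of 9 for PFOA and from 6 to 8 for 8:2 FTS and for 8:2 FTOH, while the median of all tested genes moved to at most 0.08. The count over all genes, 8 for PFOA, ran from 1 (without PFOA replicate 3) to 136 (without control replicate 3), and for the mean of the 6 compounds, 87, from 4 (without control replicate 2) to 217 (without PFDS replicate 3). By edgeR with its filter, by edgeR without the filter and by the DESeq2 test, the counts were 8, 161 and 128 for PFOA, 8, 107 and 59 for 8:2 FTOH, 21, 126 and 49 for 8:2 FTS, 6, 86 and 34 for PFDS, 2, 68 and 23 for PFDA, 6, 52 and 19 for PFOS, and 87, 286 and 196 for the mean of the 6. Replicate numbers did not pair the libraries: deviations of same-numbered libraries correlated between -0.12 and 0.13, and 6 of 21 libraries were closest to their own number. With a replicate block, 0 cholinergic genes passed and the PFOA count over all genes was 6. CHAT, at 32 to 129 counts a library, is where depth limits most.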
